A study of Homo sapiens with 12 samples.

Results

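The NRF2 antioxidant and NADPH genes are 34 genes for the transcription factor NRF2 (*NFE2L2*), its partners and its known targets, mainly enzymes or transporters. They were chosen by name and matched through the Ensembl identifiers of GENCODE release 44, and each was found as a single entry among the 58302 gene identifiers of the count table. RNA was sequenced from NCIH838 MIB1-iKO cells, lung cancer cells in which doxycycline (Dox) induces Cas9 and thereby cuts *MIB1*, the gene of a ubiquitin ligase. The 12 libraries formed 4 groups of 3. The study asked how loss of MIB1 alters the transcriptional response when a block of BMP signaling is lifted.

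All groups first spent 3 days in LDN (50 nmol/L), which blocks BMP type I receptors, and all then received 10 ng/mL BMP4 for 24 hours. MIB1 KO cells had 0.5 μg/mL Dox in the first 3 days and MIB1 WT cells had none. LDN was kept during the 24 hours in the BMP-off groups and replaced by its solvent DMSO in the BMP-on groups. The cells were puromycin-selected and MIB1-iKO lines are single-cell clones, but the clone and guide used for sequencing are not named. All KO and no WT libraries received Dox, so that effects of Dox and of Cas9 cutting cannot be told apart from those of MIB1 loss. Likewise, all BMP-off and no BMP-on libraries kept LDN in the 24 hours. Other effects of LDN therefore cannot be told apart from those of BMP signaling. The labels do not say that replicates were separate cultures, and p values then measure only the spread between these libraries.

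NRF2 is held at low levels by KEAP1, an adaptor that passes it to a ubiquitin ligase. When cysteines of KEAP1 are modified by oxidants, or when KEAP1 is mutated, NRF2 accumulates, pairs with small MAF proteins such as MAFG and binds antioxidant response elements. Its targets make and recycle glutathione, reduce thioredoxin, detoxify quinones and carbonyls, store iron, export conjugates and feed NADPH to these reactions. KEAP1 and NRF2 mutations are common in lung cancer, and NCIH838 is known as a *KEAP1*-mutant line, which was not examined here.

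The core of the antioxidant response element was searched for as TGACNNNGC, on both strands, in the 300 bases from 250 before to 50 after each RefSeq gene start (GRCh38.p14). Windows were available for 25 members. The core was found in 6 of them (24%), which were *CBR1*, *GCLM*, *GPX2*, *ME1*, *PGD* and *TXNRD1*, and in 13.6% of 27305 windows over all genes. A match describes letters and is not evidence of binding. A missing match does not show that a gene lacks the element, since only these 300 bases were searched. The windows of the 3 most abundant members with a match are shown because *PGD* and *GCLM* fell in the comparisons that follow whereas *TXNRD1* was not called in any. They read 5′ to 3′ along the gene, with the core in capitals. The *TXNRD1* window is chr12:104215529-104215828 on the plus strand, the *PGD* window is chr1:10398814-10399113 on the plus strand, and the *GCLM* window is chr1:93909381-93909680 on the minus strand.
TXNRD1: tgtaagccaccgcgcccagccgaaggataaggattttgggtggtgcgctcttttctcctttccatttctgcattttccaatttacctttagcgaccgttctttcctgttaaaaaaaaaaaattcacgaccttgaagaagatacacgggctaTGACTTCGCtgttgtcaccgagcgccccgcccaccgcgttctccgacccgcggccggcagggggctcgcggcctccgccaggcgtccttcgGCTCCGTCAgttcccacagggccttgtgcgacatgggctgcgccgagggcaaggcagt
PGD: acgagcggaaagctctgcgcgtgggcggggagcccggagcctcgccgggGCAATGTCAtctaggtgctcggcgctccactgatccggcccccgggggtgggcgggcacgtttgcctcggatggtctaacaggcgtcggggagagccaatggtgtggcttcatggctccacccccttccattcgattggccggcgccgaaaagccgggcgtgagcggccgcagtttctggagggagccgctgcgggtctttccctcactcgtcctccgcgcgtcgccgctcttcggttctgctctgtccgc
GCLM: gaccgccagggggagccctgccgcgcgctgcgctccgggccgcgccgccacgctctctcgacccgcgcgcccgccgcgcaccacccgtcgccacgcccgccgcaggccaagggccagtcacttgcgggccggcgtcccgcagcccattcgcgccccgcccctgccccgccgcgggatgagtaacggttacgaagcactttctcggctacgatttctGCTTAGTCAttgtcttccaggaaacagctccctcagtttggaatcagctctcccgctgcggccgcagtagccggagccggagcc

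The libraries held 19124010 to 29498000 counts. *MIB1* stood at 144 to 176 CPM (counts scaled by TMM library size) in the 6 WT libraries and at 31.0 to 34.4 CPM in the 6 KO libraries. Loss in KO cells amounted to log2 fold changes of -2.34 ± 0.073 (BMP-on, SE, with edgeR's Benjamini-Hochberg adjusted p = 9.70e-12) and -2.23 ± 0.072 (BMP-off, SE, with edgeR's Benjamini-Hochberg adjusted p = 1.85e-11). The epithelial keratins *KRT18* and *KRT8* averaged 79.3 and 32.9 RPKM, whereas the lung lineage factors *NKX2-1* (0.00095 RPKM) and *FOXA2* (0 RPKM) and the leukocyte marker *PTPRC* (0 RPKM) were absent or nearly so. Other epithelial markers were low, with *EPCAM* at 3.78, *CDH1* at 1.61 and *KRT19* at 0.030 RPKM. Of the fibroblast markers, *COL1A1* was at 3.74 RPKM, and *PDGFRB*, *COL1A2* and *DCN* were at 0.19, 0.015 and 0.0042 RPKM. Deviations of libraries from their group mean followed transcript GC content, most in KO BMP-off replicates 2 and 3, with a Spearman's rho across genes of -0.60 and 0.59. The trend was also seen in WT BMP-off replicates 1 and 3 (-0.43 and 0.40) and in KO BMP-on replicates 1 and 3 (0.37 and -0.35). For named genes that were called, values are therefore also given after a GC correction and without both KO BMP-off libraries. They are given where either ends the call or moves the value by over 1.5 times. The correction was fitted to the deviation of each library from the mean over all 12 libraries, not from its group mean. It therefore also takes out any difference between groups that follows GC content. For members that were not called, moves under the correction are given as counts, and for the regulators in the BMP response of KO cells.

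Levels are given in RPKM, read counts that the authors scaled for the length of the gene model and for sequencing depth, so that genes can be compared per length. Many of the 34 members were abundant in these cells, with a median of 28.7 RPKM against 5.26 RPKM over the 17188 genes tested. NRF2 targets outside the members are not part of this median. Mean levels over the 12 libraries were at least 100 RPKM for 9 members, 10 to 100 RPKM for 14, 1 to 10 RPKM for 5 and under 1 RPKM for 6. The members that stood highest came from several arms of the program. They were the ferritin light chain (*FTL*), peroxiredoxin 1 (*PRDX1*), thioredoxin (*TXN*) and its reductase (*TXNRD1*), the quinone reductase *NQO1*, the aldo-keto reductase *AKR1B1* and, of the pentose phosphate pathway, *PGD*, *TKT* and *TALDO1*.

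**Figure D1:**
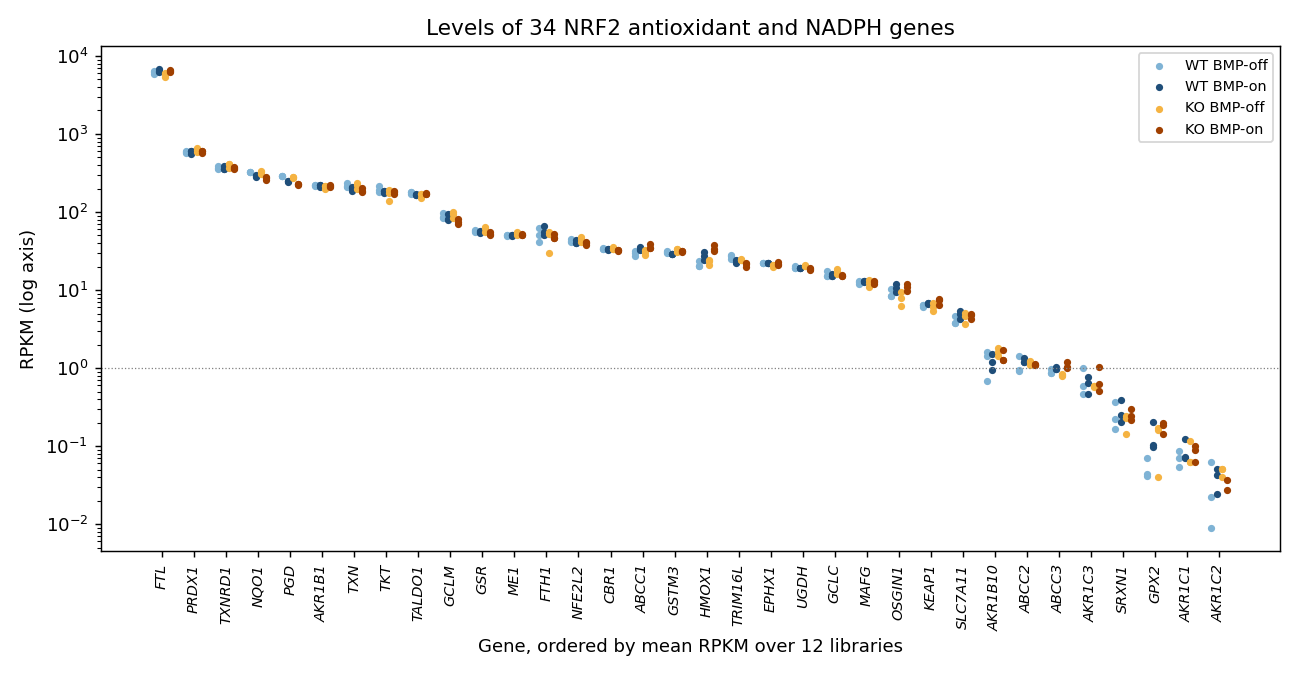
Level of each of the 34 genes in RPKM (log axis) in every library, with the groups in color, ordered by the mean over 12 libraries. The dotted line marks 1 RPKM, and the single library in which *AKR1C2* was at 0 is not drawn. *FTL* lies at 5423 to 6824 RPKM, and within most genes the groups lie close together compared with the distance between genes.

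Among the regulators, *NFE2L2* was at 42.3 RPKM on average (38.3 to 48.1 over the 12 libraries), *MAFG* at 12.6 RPKM (11.0 to 13.3) and *KEAP1* at 6.57 RPKM (5.40 to 7.61). The ranges of these 3 genes did not overlap, so that *NFE2L2* stood above *MAFG* and *MAFG* above *KEAP1* in every library.

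Glutathione genes differed widely in level. *GCLM* and *GCLC*, the modifier and catalytic subunits of the ligase that sets the rate of glutathione synthesis, were at 85.3 and 16.0 RPKM. Glutathione reductase (*GSR*), which uses NADPH to recycle oxidized glutathione, was at 56.6 RPKM and the transferase *GSTM3* at 30.9 RPKM. *SLC7A11*, the cystine importer that supplies the pathway, was at 4.51 RPKM, from 3.62 to 5.46 RPKM. The glutathione peroxidase *GPX2* was close to absent, with 1 to 5 counts per library.

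In the thioredoxin arm, *PRDX1* was at 597 RPKM, *TXNRD1* at 376 RPKM and *TXN* at 207 RPKM. Sulfiredoxin (*SRXN1*), which repairs overoxidized peroxiredoxins, was listed at 0.248 RPKM from 9 to 24 counts, and 90.7% of its exonic bases are shared on the same strand with another annotated gene, ENSG00000270299. That level therefore depends on how reads in shared exons were counted.

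The NADPH-producing dehydrogenase *PGD* was at 260 RPKM, *TKT* at 181 RPKM, *TALDO1* at 169 RPKM and malic enzyme 1 (*ME1*) at 51.1 RPKM. *TKT* and *TALDO1*, which act in the branch of the pathway that makes no NADPH itself, overlapped in their ranges. *TKT* was at 72.3 when its CPM were divided by the length of its longest transcript instead, a value below that of *TALDO1* (178).

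Of the aldo-keto reductases, *AKR1B1* reached 215 RPKM whereas *AKR1B10* was at 1.37 RPKM, *AKR1C3* at 0.656 RPKM, *AKR1C1* at 0.0806 RPKM and *AKR1C2* at 0.0349 RPKM. *AKR1B10* and the AKR1C genes are often used as readouts of NRF2 activity. *AKR1C1* had 8 to 20 counts per library and *AKR1C2* 0 to 6, and 33.4% and 41.0% of their 50-base stretches, the length of a read, occur more than once in the genome. Reads of these near-identical genes may be split or lost, so that their own levels are uncertain. *GPX2* and *AKR1C2* did not pass the filter on low counts, which left 32 members for testing.

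*NQO1*, the defining target of the program, was at 301 RPKM. The carbonyl reductase *CBR1* was at 33.5 RPKM, the epoxide hydrolase *EPHX1* at 21.6 RPKM and *UGDH*, which makes the sugar donor for glucuronidation, at 19.6 RPKM. *FTL* averaged 6225 RPKM, the highest mean of all genes listed, and took 0.446% to 0.580% of the counts of a library. Its partner *FTH1* was listed at only 50.6 RPKM, a value that is uncertain because 45.2% of its 50-base stretches occur more than once in the genome, in up to 11 copies, and 73.2% of its exonic bases lie opposite exons of *BEST1*. Heme oxygenase 1 (*HMOX1*), which opens the heme ring and releases iron, was at 26.5 RPKM.

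The exporter of glutathione conjugates *ABCC1* was at 32.4 RPKM, far above its relatives *ABCC2* (1.15 RPKM) and *ABCC3* (0.943 RPKM). The other targets *TRIM16L* and *OSGIN1*, an oxidative stress growth inhibitor, were at 23.9 and 9.55 RPKM. Of the 33 pairs of genes next to each other in the order of levels, 23 overlapped in their range over libraries. Levels did not overlap between *FTL*, *PRDX1*, *TXNRD1* and *NQO1* at the top, nor between *PGD* and *AKR1B1*, *TALDO1*, *GCLM* and *GSR*, *NFE2L2* and *CBR1*, *GCLC* and *MAFG*, *SLC7A11* and *AKR1B10*, or *AKR1C3* and *SRXN1*.

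**Figure D2:**
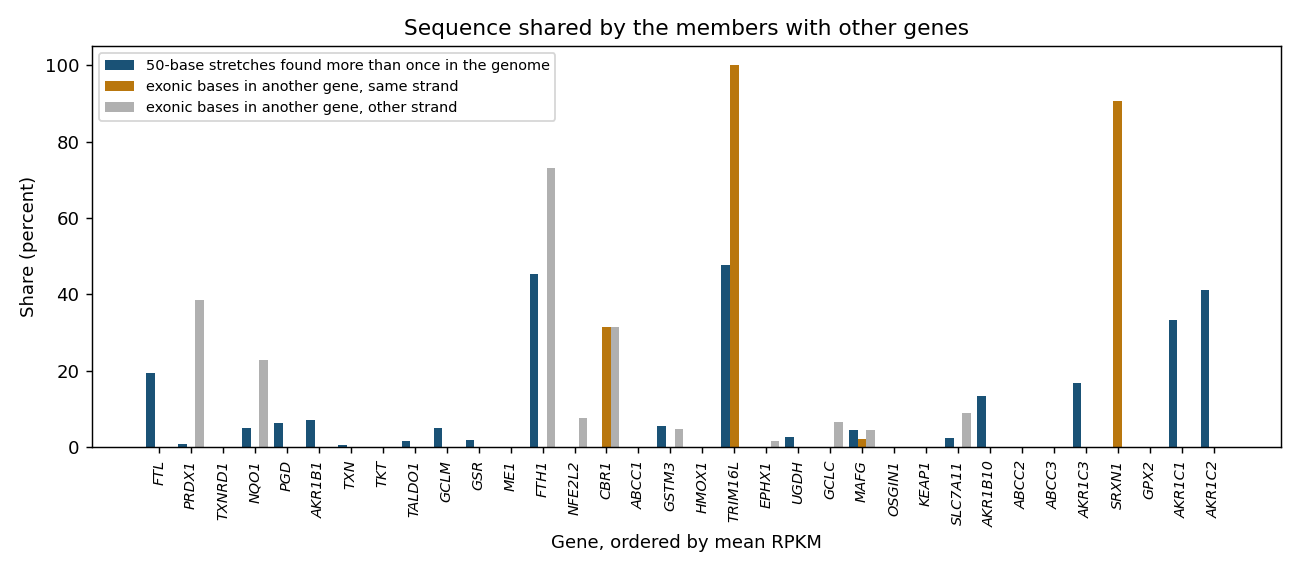
Share in percent of 50-base stretches of each gene's canonical transcript that occur more than once in the genome (blue), and of exonic bases that overlap an exon of another gene on the same strand (orange) or the other strand (gray). *TRIM16L* (47.6%), *FTH1* (45.2%) and *AKR1C2* (41.0%) have the most repeated sequence, and *SRXN1* (90.7%) and *TRIM16L* (100%, with a second entry of the same name) share most exonic bases with another gene.

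Lifting the BMP block in WT cells moved few of these genes. Of the 32 members tested, *HMOX1* rose and *PGD* fell, which is 6.25% of the members. A gene was called where its adjusted p did not exceed 0.05, as was the case for 3.92% of all genes tested, with 1.91% higher and 2.01% lower. *HMOX1* was at 35.5, 36.0 and 40.5 CPM with BMP-off and at 54.1, 43.2 and 48.3 CPM with BMP-on. The groups did not overlap, and the log2 fold change was 0.38 ± 0.093 (SE, with edgeR's Benjamini-Hochberg adjusted p = 0.0342), an increase of 29.9%. In bulk RNA, a change in the number of cells that express a gene and a change in RNA per cell cannot be told apart.

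The *HMOX1* call in WT cells was lost without WT BMP-off replicate 1 or 2 (edgeR Benjamini-Hochberg adjusted p = 0.0902 and 0.140) and without WT BMP-on replicate 1 or 3 (edgeR Benjamini-Hochberg adjusted p = 0.141 and 0.0783). With those libraries left out the log2 fold change was still 0.29 to 0.38.

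*PGD*, the gene of a dehydrogenase that makes NADPH in the pentose phosphate pathway, was at 514, 531 and 526 CPM with BMP-off and at 437, 455 and 456 CPM with BMP-on. All BMP-on libraries lay below all BMP-off libraries. This gave a log2 fold change of -0.22 ± 0.040 (SE, with edgeR's Benjamini-Hochberg adjusted p = 0.00341), a change of -14.2%, and it was called under all 24 alternative settings and left-out libraries. Its partners in NADPH supply *TALDO1*, *TKT* and *ME1* were not called, with log2 fold changes of -0.06, -0.08 and 0.02.

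*NQO1* averaged 967 ± 5.04 CPM in BMP-off and 874 ± 30.2 CPM in BMP-on libraries (SD, n = 3 each). The change of -0.15 ± 0.040 on the log2 scale missed the threshold (SE, with edgeR's Benjamini-Hochberg adjusted p = 0.0541) although the groups did not overlap. Groups did not overlap for 3 members with higher and 4 with lower values, where 11.2% and 12.7% of all genes did so. The regulators were not called, with log2 fold changes of -0.04 for *NFE2L2*, 0.14 for *KEAP1* and 0.07 for *MAFG*. The median over the 32 members was 0.0026, against 0.0016 over all genes tested.

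In KO cells the same step moved 10 members, 5 in each direction. These are 31.25% of the members, against 22.0% of all genes tested, with 11.1% called higher and 10.9% called lower. *HMOX1*, *OSGIN1*, *ABCC3*, *ABCC1* and *FTL* rose, and *GCLM*, *PGD*, *NQO1*, *TRIM16L* and *GSR* fell. By role, 2 of 3 heme and iron genes and 2 of 3 exporters rose, whereas 2 of 5 glutathione genes, 1 of 4 NADPH genes and 1 of 4 genes of quinone, epoxide, carbonyl and glucuronidation enzymes fell. None of the 4 thioredoxin genes, 4 aldo-keto reductases and 3 regulators was called.

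**Figure D3:**
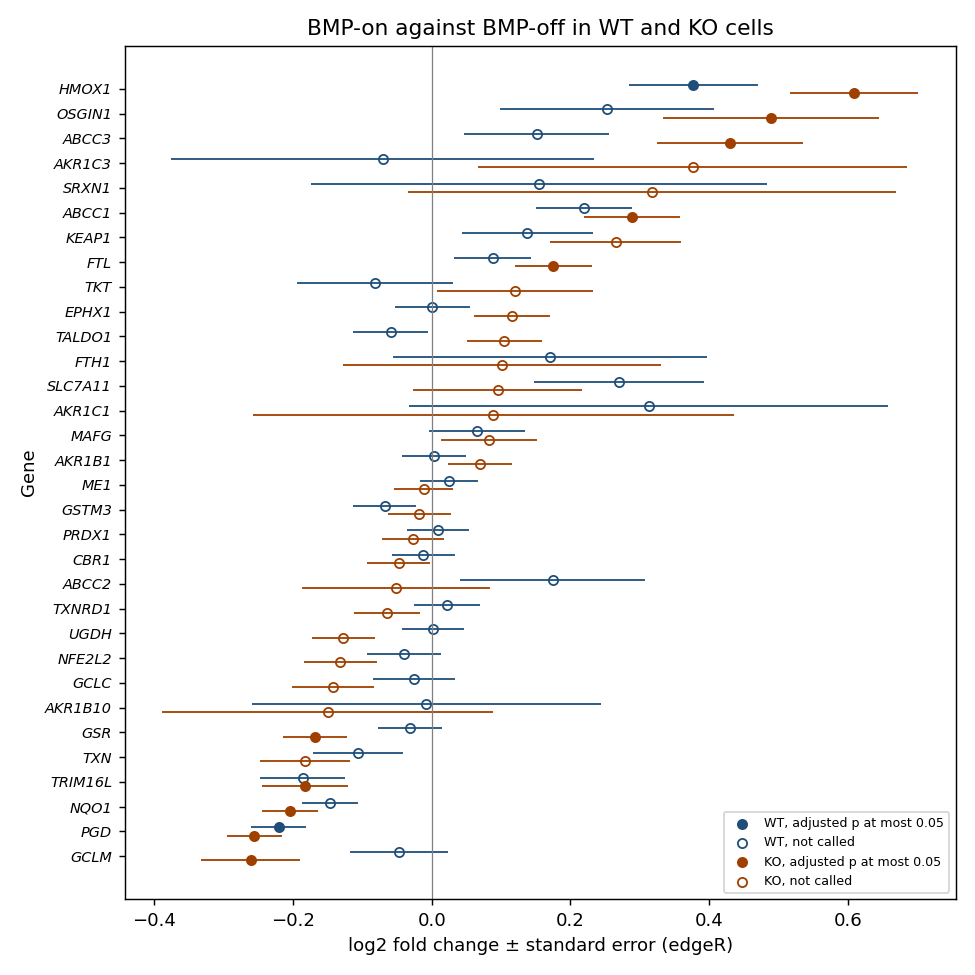
The log2 fold change of BMP-on against BMP-off for the 32 members tested in WT (blue) and KO (brown) cells, with the standard error of the edgeR fit as bars. Filled points are genes called, which are *HMOX1* and *PGD* in WT cells and 10 genes in KO cells, and all values lie between -0.26 and 0.61.

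*HMOX1* changed most. It was at 41.1, 35.2 and 42.7 CPM with BMP-off and at 59.4, 66.2 and 56.1 CPM with BMP-on, and the groups did not overlap. That is a log2 fold change of 0.61 ± 0.092 (SE, with edgeR's Benjamini-Hochberg adjusted p = 0.000265), an increase of 52.5%. The call held under all 24 alternatives, with a value of 0.38 after the GC correction.

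*FTL*, which stores the iron that heme breakdown releases, was at 5115, 4411 and 4980 CPM with BMP-off and at 5630, 5499 and 5253 CPM with BMP-on. The lowest value was that of KO BMP-off replicate 2, and the groups did not overlap. The log2 fold change was 0.18 ± 0.055 (SE, with edgeR's Benjamini-Hochberg adjusted p = 0.0320). It was 0.03 after the GC correction (edgeR Benjamini-Hochberg adjusted p = 0.630) and 0.09 without KO BMP-off replicates 2 and 3 (edgeR Benjamini-Hochberg adjusted p = 0.368), and the call was also lost without KO BMP-off replicate 2, KO BMP-on replicate 1 or KO BMP-on replicate 2, with edgeR Benjamini-Hochberg adjusted p values of 0.117, 0.129 and 0.0905. *FTH1* was not called, with a log2 fold change of 0.10 ± 0.23 (SE).

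The exporter *ABCC1* was at 192, 172 and 204 CPM with BMP-off and at 224, 252 and 219 CPM with BMP-on, without overlap. Its log2 fold change was 0.29 ± 0.069 (SE, with edgeR's Benjamini-Hochberg adjusted p = 0.00766). The GC correction left 0.17, and the call was lost in 1 of 24 alternatives. The less abundant *ABCC3* was at 4.89, 4.86 and 5.17 CPM with BMP-off and at 7.40, 6.27 and 6.37 CPM with BMP-on, again without overlap. That is a log2 fold change of 0.43 ± 0.11 (SE, with edgeR's Benjamini-Hochberg adjusted p = 0.00821), which missed the threshold without KO BMP-on replicate 1 (edgeR Benjamini-Hochberg adjusted p = 0.0663) and without KO BMP-off replicates 2 and 3 (edgeR Benjamini-Hochberg adjusted p = 0.0636). *ABCC2* was not called, with a log2 fold change of -0.05 ± 0.14 (SE).

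*OSGIN1* was at 20.5, 15.5 and 24.7 CPM with BMP-off and at 28.8, 31.2 and 25.4 CPM with BMP-on. The groups were separated by less than 1 CPM. This gave a log2 fold change of 0.49 ± 0.16 (SE, with edgeR's Benjamini-Hochberg adjusted p = 0.0437), and after the GC correction it was 0.11 (edgeR Benjamini-Hochberg adjusted p = 0.485). Of 12 fits lacking a library, 6 gave no call, with edgeR Benjamini-Hochberg adjusted p values of 0.0931 and 0.0783 without KO BMP-off replicate 1 or 2, 0.115 and 0.130 without KO BMP-on replicate 1 or 2, 0.0575 without WT BMP-off replicate 2 and 0.0578 without WT BMP-on replicate 3.

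Among the genes that fell, *PGD* was at 508, 472 and 506 CPM with BMP-off and at 418, 414 and 412 CPM with BMP-on. The BMP-on libraries lay within 7 CPM of each other and well below the rest. That is a log2 fold change of -0.26 ± 0.040 (SE, with edgeR's Benjamini-Hochberg adjusted p = 0.000232), a change of -16.2%, and was called under all 24 alternatives. *TKT*, *TALDO1* and *ME1* were not called, with log2 fold changes of 0.12, 0.10 and -0.01.

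*NQO1* was at 962, 959 and 918 CPM with BMP-off and at 789, 848 and 828 CPM with BMP-on, without overlap. Its log2 fold change was -0.20 ± 0.040 (SE, with edgeR's Benjamini-Hochberg adjusted p = 0.00177), a change of -13.2%, and it too was called under all 24 alternatives. *UGDH*, *EPHX1* and *CBR1* were not called, with log2 fold changes of -0.13, 0.12 and -0.05.

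The glutathione genes *GCLM* and *GSR* fell by small amounts. *GCLM* was at 441, 458 and 395 CPM with BMP-off and at 338, 383 and 359 CPM with BMP-on, which gave a log2 fold change of -0.26 ± 0.071 (SE, with edgeR's Benjamini-Hochberg adjusted p = 0.0178). *GSR* was at 183, 184 and 169 CPM with BMP-off and at 153, 166 and 159 CPM with BMP-on, which gave -0.17 ± 0.046 (SE, with edgeR's Benjamini-Hochberg adjusted p = 0.0168). The groups did not overlap for either gene, and KO BMP-off replicate 3 was the lowest BMP-off library for both. Each call was lost without KO BMP-off replicate 1 or 2 or KO BMP-on replicate 1 or 3, with edgeR Benjamini-Hochberg adjusted p values of 0.0524 to 0.0864 for *GCLM* and 0.0512 to 0.101 for *GSR*. After the GC correction *GCLM* was at -0.17 and still called. *GCLC*, *SLC7A11* and *GSTM3* were not called, with log2 fold changes of -0.14, 0.10 and -0.02.

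*TRIM16L*, named for its resemblance to *TRIM16*, was at 47.2, 44.7 and 46.0 CPM with BMP-off and at 41.1, 42.6 and 38.1 CPM with BMP-on. GENCODE annotates the entry counted here as a transcribed unprocessed pseudogene. The groups did not overlap, and the log2 fold change was -0.18 ± 0.062 (SE, with edgeR's Benjamini-Hochberg adjusted p = 0.0445). The call was lost without KO BMP-off replicate 1, KO BMP-on replicate 1 or KO BMP-on replicate 3 (edgeR Benjamini-Hochberg adjusted p = 0.120, 0.0829 and 0.146), and without KO BMP-off replicates 2 and 3 together (edgeR Benjamini-Hochberg adjusted p = 0.0742). Since 47.6% of its 50-base stretches occur more than once in the genome, its counts may include reads of a near-identical copy.

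**Figure D4:**
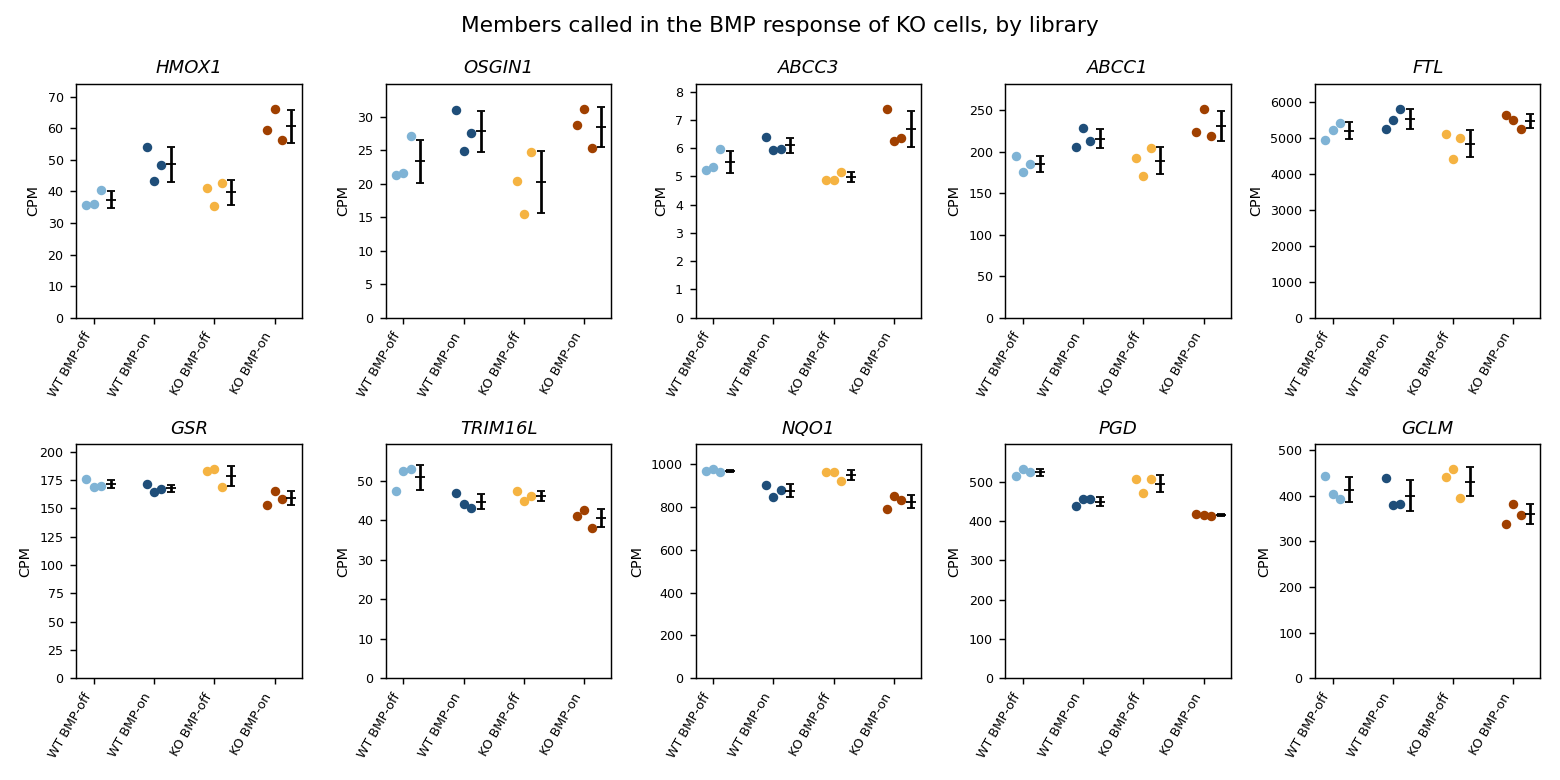
Level in CPM (from 0) of the 10 members called in the BMP response of KO cells, with a point for each library and the mean ± SD of each group of 3 beside it. In KO cells the BMP-on libraries (brown) lie above the BMP-off libraries (yellow) in the upper row and below them in the lower row.

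The regulators were not called in KO cells. *NFE2L2* averaged 193 ± 10.3 CPM in BMP-off and 176 ± 6.57 CPM in BMP-on libraries (SD, n = 3 each), which gave -0.13 on the log2 scale (edgeR Benjamini-Hochberg adjusted p = 0.0851). *KEAP1* went from 18.2 ± 2.57 to 21.9 ± 2.09 CPM (SD, n = 3 each), which gave 0.27 on the log2 scale (edgeR Benjamini-Hochberg adjusted p = 0.0562). *MAFG* had a log2 fold change of 0.08 (edgeR Benjamini-Hochberg adjusted p = 0.425). After the GC correction *KEAP1* and *MAFG* turned to -0.034 and -0.10, and *NFE2L2* was at -0.058 (edgeR Benjamini-Hochberg adjusted p = 0.820, 0.0865 and 0.312). Over all 32 members the values were spread about zero, with 16 positive, 16 negative and a median of 0.029, against 0.0056 over all genes tested. Groups did not overlap for 6 members with higher and 7 with lower values, where 17.9% and 17.8% of all genes did so.

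The GC content of the transcripts moved with these calls. The 5 members that rose had 54.9% to 63.4% GC and the 5 that fell 37.3% to 53.1%, and over all genes called in this comparison the medians were 56.9% and 43.0%. The correction moved the log2 fold change of 23 of the 32 members by over 1.5 times, of which 5 were called, and 8 members that were not called changed sign, among them *KEAP1*, *MAFG*, *EPHX1*, *TKT* and *TALDO1*. In WT cells it moved 12 members by over 1.5 times, none of them called, and 2 changed sign. With the GC correction 3 of the 32 members were called higher and 5 lower in KO cells. Under that correction 24.8% of all genes tested were called, with 1815 higher and 2443 lower, against 22.0% in the fit reported. Leaving out single libraries gave 3 to 6 higher and 2 to 9 lower, where 9 were lower without KO BMP-off replicate 3, 3 without KO BMP-off replicate 2 or KO BMP-on replicate 3 and 2 without KO BMP-off replicate 1 or KO BMP-on replicate 1. The 3 higher came without KO BMP-off replicate 2, KO BMP-on replicate 1 or KO BMP-on replicate 2. The correction does not separate GC trends among libraries of a group from GC trends between groups. The part of GC content in each value was not tested beyond it. No member reached the log2 fold change of 1 in size that the study also asked for. Both thresholds together were passed by 1.66% of all genes here.

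Whether the BMP response itself differed between KO and WT cells was tested as the interaction. No member was called by edgeR, where 0.0931% of all genes were, and the smallest Benjamini-Hochberg adjusted p of a member was 0.468. At an unadjusted edgeR p under 0.05 there was 1 of 32 members, against 1819 of the 17188 genes tested. DESeq2 also called 0 members. The differences between both responses ranged from -0.23 to 0.45 on the log2 scale. That 10 members were called in KO cells and 2 in WT cells therefore does not show that their responses differed. For *HMOX1* the difference was 0.23 ± 0.13 (SE, with edgeR's Benjamini-Hochberg adjusted p = 0.534), and for *GCLM* it was -0.21 ± 0.10 (SE, with edgeR's Benjamini-Hochberg adjusted p = 0.472). After the GC correction these differences were 0.069 and -0.13 (edgeR Benjamini-Hochberg adjusted p = 0.856 and 0.466), and 25 members moved by over 1.5 times, with 8 changes of sign.

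KO and WT cells were then compared directly, which uses the same libraries as the BMP responses. With BMP-on, 0 of the 32 members were called by edgeR, where 3.67% of all genes were (1.32% higher and 2.34% lower in KO cells). An unadjusted edgeR p under 0.05 was found for 6 of the 32 members and for 2372 of the 17188 genes tested. *HMOX1* came closest, with 48.5 ± 5.44 CPM (SD, n = 3) in WT and 60.6 ± 5.13 CPM (SD, n = 3) in KO cells. The lowest KO library (56.1 CPM) was above the highest WT library (54.1 CPM), and the log2 fold change was 0.32 ± 0.091 (SE, with edgeR's Benjamini-Hochberg adjusted p = 0.0767). DESeq2 called *HMOX1* (DESeq2 adjusted p = 0.0297), as did edgeR without KO BMP-off replicate 2 or 3 or without WT BMP-on replicate 1 (Benjamini-Hochberg adjusted p = 0.0151, 0.0476 and 0.0256). With the GC correction *HMOX1* was not called (edgeR Benjamini-Hochberg adjusted p = 0.0744), whereas *PGD* was lower and *GSTM3* higher in KO cells, with log2 fold changes of -0.12 and 0.13 (edgeR Benjamini-Hochberg adjusted p = 0.0135 and 0.0389).

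Other members with BMP-on lay between -0.23 for *FTH1* and 0.21 for *AKR1B10*. *NQO1* was at 874 ± 30.2 CPM (SD, n = 3) in WT and 822 ± 30.0 CPM (SD, n = 3) in KO cells, a log2 fold change of -0.09 that was not called (edgeR Benjamini-Hochberg adjusted p = 0.323). *NFE2L2*, *KEAP1* and *MAFG* had log2 fold changes of -0.04, 0.08 and -0.03. Groups did not overlap for 3 members with higher and 4 with lower values in KO cells, where 11.4% and 12.2% of all genes did so. The median over the members was -0.022 against 0.0025 over all genes. The GC correction moved 13 of these values by over 1.5 times, with 3 changes of sign, and 19 of those with BMP-off, with 4.

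With BMP-off, edgeR called 0 members, where 0.0407% of all genes were called (0.00582% higher and 0.0349% lower, with 0.0116% passing both thresholds of the study), and DESeq2 also called 0. There were 3 of 32 members with an unadjusted edgeR p under 0.05, against 1757 of the 17188 genes tested. The smallest Benjamini-Hochberg adjusted p of a member was 0.452. Log2 fold changes ranged from -0.29 for *SRXN1*, which rests on few counts, to 0.35 for *AKR1B10*. *NQO1* was at 967 ± 5.04 CPM (SD, n = 3) in WT and 946 ± 24.6 CPM (SD, n = 3) in KO cells, and its log2 fold change was -0.03. Those of *NFE2L2*, *KEAP1* and *MAFG* were 0.05, -0.05 and -0.05. Groups did not overlap for 1 member with higher and 5 with lower values, where 5.76% and 5.96% of all genes did so. A p above the threshold does not show that levels were equal, and the standard errors of the members measured at over 100 RPKM, at 0.040 to 0.11, set the size of change that could be seen.

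**Figure D5:**
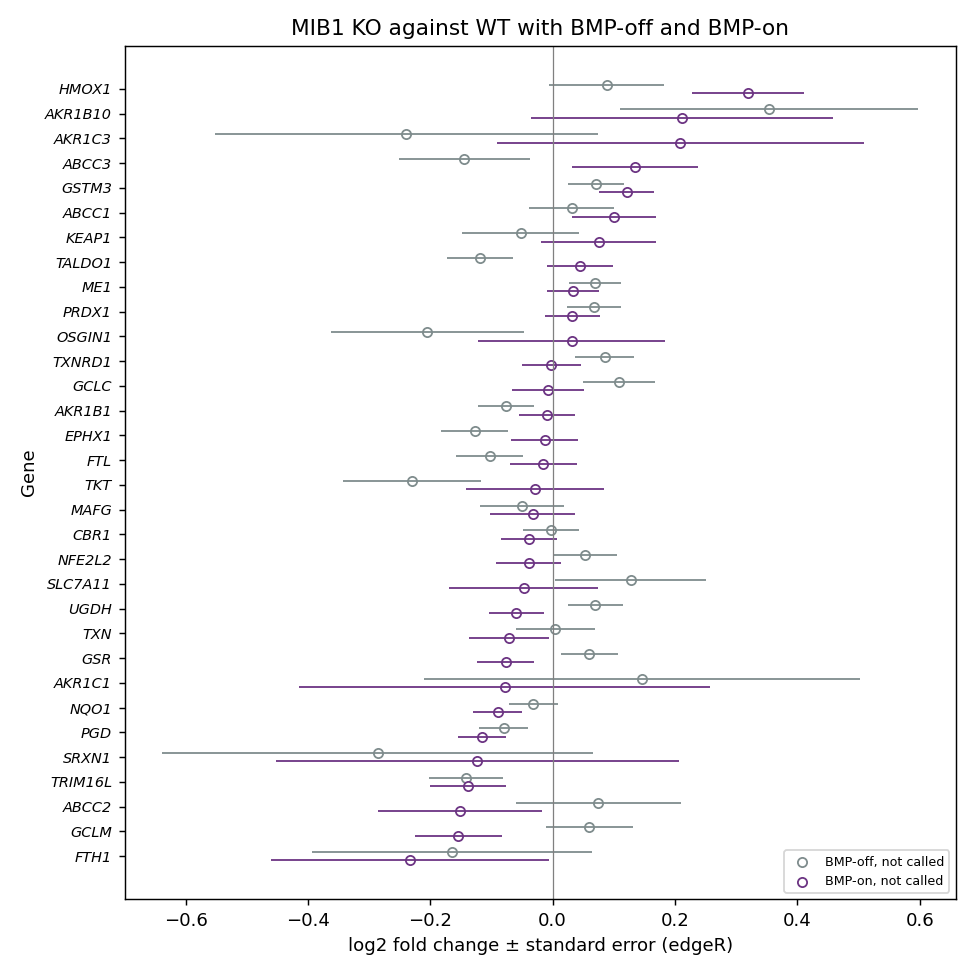
KO against WT on the log2 fold scale for the 32 members tested with BMP-off (gray) and BMP-on (purple), with the standard error of the edgeR fit as bars. All points are open, since no adjusted p was 0.05 or less, and *HMOX1* with BMP-on (0.32) lies farthest to the right among the genes with short bars.

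Other genes of the pathway were taken from lists of 74 symbols, of which 69 were tested. In the BMP response of KO cells 6 of these rose and 13 fell, which is 27.5% against 22.0% of all genes tested. The GC correction kept 2 of the 6 and 10 of the 13 and gave 4 higher and 15 lower in all, with genes newly called. Under it 24.8% of all genes tested were called. Without KO BMP-off replicates 2 and 3, 5 and 9 of them were kept. In WT cells 1 rose and 2 fell, which is 4.35% against 3.92% of all genes tested. With the GC correction 3 of the 69 rose and 12 fell, where 8.98% of all genes were called (575 higher and 969 lower). KO against WT gave 1 lower gene in the BMP-on state, which is 1.45% against 3.67% of all genes tested. With the GC correction 3 were lower, where 7.30% of all genes were called (441 higher and 813 lower). None was called by edgeR with BMP-off or in the interaction in any of these fits.

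Of 15 genes listed for NADPH supply outside the members, 7 fell and 0 rose in the BMP response of KO cells, where 10.9% of all genes tested were called lower. The list also holds genes whose enzymes make no NADPH themselves, among them *RPIA* and the NAD kinase gene *NADK2*, which both fell. The GC correction kept 5 of the 7, with *ME2* and *NNT* lost, and 4 were kept without KO BMP-off replicates 2 and 3, with *RPIA* lost as well. The strongest call was *MTHFD1*, a folate enzyme that yields NADPH, which went from 197 ± 2.15 to 160 ± 4.02 CPM (SD, n = 3 each), which gave -0.30 on the log2 scale (edgeR Benjamini-Hochberg adjusted p = 6.8e-05). *MTHFD1* was also the gene with lower values in KO cells in the BMP-on state, at -0.18 (edgeR Benjamini-Hochberg adjusted p = 0.0180). The mitochondrial NAD kinase *NADK2* and the transhydrogenase *NNT* had values of -0.27 and -0.17 (edgeR Benjamini-Hochberg adjusted p = 0.00272 and 0.0131), and *NNT* was at -0.09 after the GC correction (edgeR Benjamini-Hochberg adjusted p = 0.154).

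Of 17 antioxidant enzymes tested outside the members, glutaredoxin (*GLRX*) rose in both responses, by 0.31 in WT and 0.42 in KO cells (edgeR Benjamini-Hochberg adjusted p = 0.0205 and 0.000441). The glutathione peroxidase *GPX1* rose by 0.50 in KO cells (edgeR Benjamini-Hochberg adjusted p = 0.0363), but by 0.11 and without a call after the GC correction. Catalase (*CAT*) fell in WT cells, at -0.19 (edgeR Benjamini-Hochberg adjusted p = 0.0300). Among partners and degradation factors of NRF2, the small MAF gene *MAFF* was at -0.36 in KO cells (edgeR Benjamini-Hochberg adjusted p = 0.00163) and at -0.71 after the GC correction. *DPP3* and *SQSTM1*, whose proteins bind KEAP1, were at 0.34 and 0.32 (edgeR Benjamini-Hochberg adjusted p = 0.00743 and 0.0107), values that were 0.07 and 0.15 and not called after the GC correction.

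Further targets in KO cells included the transferase *MGST1* at -0.23, the reductase *PTGR1* at -0.21 and the biliverdin reductase *BLVRB* at 0.44 (edgeR Benjamini-Hochberg adjusted p = 0.00328, 0.00646 and 0.0351), and *BLVRB* was at 0.24 after the GC correction and still called. In WT cells *CBR3*, a carbonyl reductase with a mean level of only 1.51 RPKM, was at -0.76 (edgeR Benjamini-Hochberg adjusted p = 0.0319). In KO cells *CBR3* was at -0.18 and not called (edgeR Benjamini-Hochberg adjusted p = 0.530). Of 9 ferroptosis and heme genes tested, the transferrin receptor *TFRC* and *ACSL4*, which loads polyunsaturated fatty acids into lipids, fell in KO cells, at -0.28 and -0.29 (edgeR Benjamini-Hochberg adjusted p = 0.000349 and 0.000430), and *ACSL4* was at -0.18 after the GC correction and still called. *HMOX2*, the constitutive heme oxygenase, rose by 0.28 (edgeR Benjamini-Hochberg adjusted p = 0.0163), but by 0.02 and without a call after the GC correction, and the call was also lost without KO BMP-off replicates 2 and 3 (edgeR Benjamini-Hochberg adjusted p = 0.0575).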

How the data were processed

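RNA-seq counts of 12 libraries were used, in 4 groups of 3 set by the sample labels. The authors sequenced single-end 50-base reads, discarded reads that matched ribosomal RNA, used GSNAP (at most 2 mismatches) to align what remained to GRCh38 and counted reads on exons with HTSeqGenie. They state RefSeq annotation release 106, while rows carry Ensembl identifiers. Whether strand was used in counting and which of 2 library kits served each sample are not given in the sources used here. The deposited counts are whole numbers without normalization. The deposited RPKM values were normalized by the authors and served for levels and for alternatives.

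Counts were scaled by TMM (factors 0.984 to 1.02), filtered with filterByExpr and fitted in 1 robust quasi-likelihood model of 4 groups with edgeR 4.0.16 in R 4.3.3. P values were adjusted by the Benjamini-Hochberg method over the 17188 genes tested in each of 5 comparisons, and a member was called where this p did not exceed 0.05. The scripts were tested on simulated data. Replicates of a group differed by 3.56 to 22.5 times counting noise, so none is the same library sequenced again. This measure cannot show whether they came from separate cultures. Alternatives were limma 3.58.1 (limma-voom with quantile normalization), DESeq2 1.42.0, scaling by library size, a minimum of 10 counts per library, no filter, only the groups compared, a replicate block, each library left out, log2(RPKM + 1) and log2(RPKM + 0.1), a GC correction (loess, span 0.4) and both thresholds of the study.

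The members and lists were chosen with earlier results of these data known. Members were named where called in any comparison, with *NFE2L2*, *KEAP1*, *MAFG* and *NQO1* always given, and other genes by up to 3 calls per list and comparison. Other members appear by level, or beside those called, after their values were seen. All 12 sample columns of the tables were mapped. Promoter windows came from RefSeq, with none for *ABCC1*, *ABCC3*, *AKR1B10*, *FTH1*, *GSR*, *HMOX1*, *PRDX1*, *SLC7A11* and *TRIM16L*.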

Additional observations from a re-analysis of the deposited data

How the results depend on the processing

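No value changed sign under any alternative among the called members and *MIB1*. Under 24 alternatives *HMOX1*, *PGD* and *NQO1* in KO cells, *PGD* in WT cells and *MIB1* in both comparisons were always called, *ABCC1* 23 times, *ABCC3*, *GCLM* and *GSR* 19, *TRIM16L* 17, *FTL* 14 and *OSGIN1* 13 times in KO cells and *HMOX1* 16 times in WT cells. Where counts of called members moved by over 1.5 times the cause was not tested. In WT cells 1 rose in the fit reported, against 3 without a filter, 2 with only the groups compared, 2 without KO BMP-off replicates 2 and 3 (chosen after seeing the data), 0 with log2(RPKM + 1), log2(RPKM + 0.1) or log2(RPKM + 1) without a filter, and 0 with both thresholds. There 1 fell, against 3 with the GC correction, 2 with DESeq2, no filter, only the groups compared or those libraries left out, and 0 with both thresholds. In KO cells 5 rose, against 3 with only the groups compared, the GC correction or those libraries left out, 2 with either RPKM pseudocount, 1 with log2(RPKM + 1) without a filter and 0 with both thresholds, and 5 fell, against 3 with only the groups compared and 0 with both thresholds. In the BMP-on state 0 members were higher in KO cells, against 1 with DESeq2, limma-voom, library size, no filter, only the groups compared, the GC correction or those libraries left out, and 0 were lower, against 1 without a filter or with the GC correction. Leaving out 1 library gave 0 to 2 rising and 1 to 2 falling in WT cells, 3 to 6 rising and 2 to 9 falling in KO cells, and 0 to 1 higher and 0 lower for KO cells in the BMP-on state, and -2.29 to -2.13 and -2.38 to -2.28 for *MIB1* with BMP-off and BMP-on.

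Of 18 same-numbered pairs of libraries, 2 had a correlation of deviations above 0.1, with the highest at 0.19. Pairs with different numbers were not compared, so whether a replicate number marks a shared batch was not settled. With a replicate block 0 members rose and 1 fell in WT cells (*HMOX1* edgeR Benjamini-Hochberg adjusted p = 0.0552), and 5 rose and 4 fell in KO cells. Over all genes the GC correction raised calls from 328 higher and 346 lower to 575 and 969 in WT cells, from 227 and 403 to 441 and 813 when KO was set against WT in the BMP-on state, from 1 and 6 to 21 and 74 with BMP-off, and from 7 and 9 to 63 and 172 in the interaction. In the BMP response of KO cells the correction changed calls from 1903 higher and 1874 lower to 1815 and 2443. DESeq2 called 8 and 24 with BMP-off and 44 and 110 in the interaction. The median over members in KO cells lay between -0.046 (without KO BMP-off replicate 3) and 0.048 and so has no stable sign. Depth limits *SRXN1*, *AKR1C1* and *AKR1C3*, whose standard errors were 0.30 or more.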
